A study of Mus musculus with 6 samples.

Results

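Transcription factor genes of sensory and autonomic neurons, 9 listed by symbol, were followed in neural crest cells of the mouse branchial arches at E11.5: Neurog1, Neurog2, Neurod1, Neurod4, Pou4f1, Isl1, Tlx3, Prdm12 and Phox2a. All 9 were among the 21006 symbols of the deposited count table and among the 14555 genes with enough counts to be tested. The 3 control libraries came from embryos with the alleles Ehmt1+/+ and Ehmt2+/+, and the 3 DKO (double knockout) libraries from embryos with Ehmt1f/f and Ehmt2f/f. Both groups carried Rosa26 TdTomato/+ and Wnt1-cre, so the controls also express Cre. Arches were dissociated with papain and the cells sorted on TdTomato, a red reporter that Cre switches on. Per the labels the replicates are biological, but the labels do not say whether a library is 1 embryo or a pool. The p-values therefore set the group difference against the spread between libraries within each group of 3, whichever a library holds.

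Cranial ganglia form from 2 sources, neural crest and ectodermal placodes, and Wnt1-cre marks the crest together with the dorsal neural tube from which crest arises. In the sensory lineage, the neurogenins Neurog1 and Neurog2 commit dividing precursors to a neuronal fate, Neurod1 and Neurod4 act after them, and Pou4f1, Isl1, Tlx3 and Prdm12 specify the postmitotic neuron and its subtype. In the autonomic lineage, Phox2a is among the genes that direct crest cells to sympathetic, parasympathetic and enteric fates. Ehmt1 and Ehmt2 encode GLP and G9a, the paired enzymes that place mono- and dimethyl marks on lysine 9 of histone H3.

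Total counts ran from 23414466 to 44538260 per library. Ehmt2 lay between 119 and 140.4 CPM in DKO and between 347 and 359.7 CPM in control libraries, and Ehmt1 between 133 and 168 CPM against 250.03 and 268 CPM (counts over the whole gene, not only a deleted part); CPM are counts scaled to a common library total, with TMM factors. Of all tested genes, 3.01% were called at an adjusted p below 0.05 by edgeR's quasi-likelihood test, 0.818% lower and 2.19% higher in DKO. The labelled cell type was matched by arch crest genes: Cdh11, Prrx1, Pdgfra and Twist1 each exceeded 266 CPM in every library. DKO replicate 3 lay nearest the controls on the first principal component (-15.0, against -34.9 and -39.2 for DKO replicates 1 and 2 and 21.0 to 35.3 for the controls).

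Tlx3 and Pou4f1, which specify postmitotic sensory neurons, fell in DKO, their DKO means lying 34.4% and 27.0% below the control means, and they were the 2 called genes of the 9. The neurogenins and Phox2a varied more between libraries than between groups. For Isl1 every DKO library also lay below every control library, but its adjusted p missed the threshold. All 9 log2 fold changes were below 0, with a median of -0.42, against 51.2% of all tested genes below 0 and a median of -0.01. The 9 genes were chosen with earlier results of these data known. With scaling by library size only, Neurod4 (0.00265) and Phox2a (0.045) were above 0, and the median of all genes was 0.07.

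For the 3 genes whose groups did not overlap, the promoter windows from RefSeq (GRCm38.p6, the assembly of mm10) are given here, from 250 bases before to 50 bases after the transcription start, because these are the start sites of the genes that separated the groups. Capitals mark the E-box CANNTG, the core that neurogenins and NeuroD proteins recognise, searched on both strands. The homeodomain core TAATTA was searched too and is absent from these 3 windows.
Tlx3, chr11:33203539-33203838, minus strand: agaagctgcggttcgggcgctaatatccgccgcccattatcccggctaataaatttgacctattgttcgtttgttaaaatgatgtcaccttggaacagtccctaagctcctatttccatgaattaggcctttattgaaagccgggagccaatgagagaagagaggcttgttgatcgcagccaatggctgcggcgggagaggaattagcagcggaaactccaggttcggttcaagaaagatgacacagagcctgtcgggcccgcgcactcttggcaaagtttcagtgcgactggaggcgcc
Pou4f1, chr14:104467950-104468249, minus strand: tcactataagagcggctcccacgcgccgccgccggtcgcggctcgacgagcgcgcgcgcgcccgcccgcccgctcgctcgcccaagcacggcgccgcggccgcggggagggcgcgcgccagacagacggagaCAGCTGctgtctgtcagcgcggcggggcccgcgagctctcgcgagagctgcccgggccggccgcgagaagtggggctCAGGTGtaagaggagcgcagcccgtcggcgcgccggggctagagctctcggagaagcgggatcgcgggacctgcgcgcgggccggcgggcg
Isl1, chr13:116309639-116309938, minus strand: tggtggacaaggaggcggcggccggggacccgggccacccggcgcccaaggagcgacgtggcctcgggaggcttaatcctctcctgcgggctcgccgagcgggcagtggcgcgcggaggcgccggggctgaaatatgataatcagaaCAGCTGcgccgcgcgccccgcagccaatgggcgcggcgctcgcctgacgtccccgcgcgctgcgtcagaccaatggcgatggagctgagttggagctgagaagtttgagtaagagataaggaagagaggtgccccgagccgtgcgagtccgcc
Pou4f1 has 2 E-boxes, of which 1 is CAGCTG, Isl1 has 1 CAGCTG, and no CANNTG is in the Tlx3 window. All 9 genes matched the table, with 10 windows between them since Neurod4 has 2. CANNTG was in 6 of the 10 and in 69.0% of 21263 windows of protein-coding genes, CAGCTG (one form of CANNTG) in 3 of 10 and 15.6%, CAGATG (another form) in 0 of 10 and 14.6%, and TAATTA in 1 of 10, that of Neurog1, and 4.53%. The windows of the 9 genes held 4 to 57 CpG dinucleotides with a median of 22, against a median of 13 and quartiles of 4 and 24 over all windows. Pou4f1 had the most, 57, with a GC content of 78.3%, and Tlx3 had 18 with 51.7%.

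Tlx3 is a homeobox gene that selects the glutamatergic fate of sensory and dorsal relay neurons (chromosome 11, 33200752 to 33203588). It measured 18.9, 18.0 and 18.6 CPM in DKO replicates 1 to 3 and 26.2, 26.3 and 32.1 CPM in control replicates 1 to 3. Every DKO library was below every control library, as was the case for 12.7% of all tested genes, and the DKO libraries differed from one another by less than 1 CPM. The means were 18.5 ± 0.454 and 28.2 ± 3.38 CPM (SD, n = 3 each), or -0.61 on the log2 scale (SE 0.11; edgeR adjusted p = 0.0247). This call was kept without DKO replicate 3 (adjusted p = 0.0284) and ended without any 1 of the other 5 libraries (edgeR adjusted p between 0.0664 and 0.103), with log2 fold changes from -0.65 to -0.51.

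Pou4f1 encodes the POU homeodomain protein Brn3a, which ends the neurogenic programme and maintains sensory subtype genes in the trigeminal and dorsal root ganglia (chromosome 14, 104461675 to 104468118). Its levels were 43.3, 39.1 and 45.5 CPM in DKO and 55.8, 62.0 and 57.4 CPM in control libraries, with no overlap. The means of 42.6 ± 3.25 and 58.4 ± 3.23 CPM (SD, n = 3 each) differed by -0.45 on the log2 scale (SE 0.09; edgeR adjusted p = 0.0306). The call held without DKO replicate 3 (adjusted p = 0.0188), and without each other library the adjusted p lay between 0.0784 and 0.137.

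Isl1, a LIM homeodomain gene of sensory, sympathetic and motor neurons that acts with Pou4f1, followed the same order (chromosome 13, 116298270 to 116309688). It stood at 45.5, 40.0 and 47.2 CPM in DKO and 55.1, 64.9 and 57.9 CPM in control libraries. The groups did not overlap, and the log2 fold change was -0.42 (SE 0.10, 95% interval -0.64 to -0.20; edgeR adjusted p = 0.0569). Isl1 passed the threshold with the DESeq2 Wald test (adjusted p = 0.00520), without a filter on low counts (edgeR, 0.0465) and without DKO replicate 3 (edgeR, 0.0350). Over all genes these fits called 482, 143 and 509 lower, against 119 in the main fit. Isl1 missed the threshold under every other setting that kept all libraries. Without each other library its edgeR adjusted p lay between 0.0934 and 0.213.

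Prdm12, a PRDM zinc finger gene needed for nociceptors, has a protein that has been reported to bind G9a. It measured 23.2, 23.1 and 27.2 CPM in DKO and 33.8, 33.8 and 26.7 CPM in control libraries, and DKO replicate 3 lay just above control replicate 3. Its log2 fold change was -0.36 (SE 0.12, 95% interval -0.64 to -0.08; edgeR adjusted p = 0.155). Neurod1, which drives the differentiation of committed neurons, measured 30.2, 24.4 and 41.6 CPM in DKO and 42.7, 57.0 and 41.2 CPM in control libraries. Only DKO replicate 3 overlapped the controls, and the log2 fold change of -0.55 (SE 0.21) had an edgeR adjusted p of 0.201, or 0.0396 without that library.

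**Figure D1:**
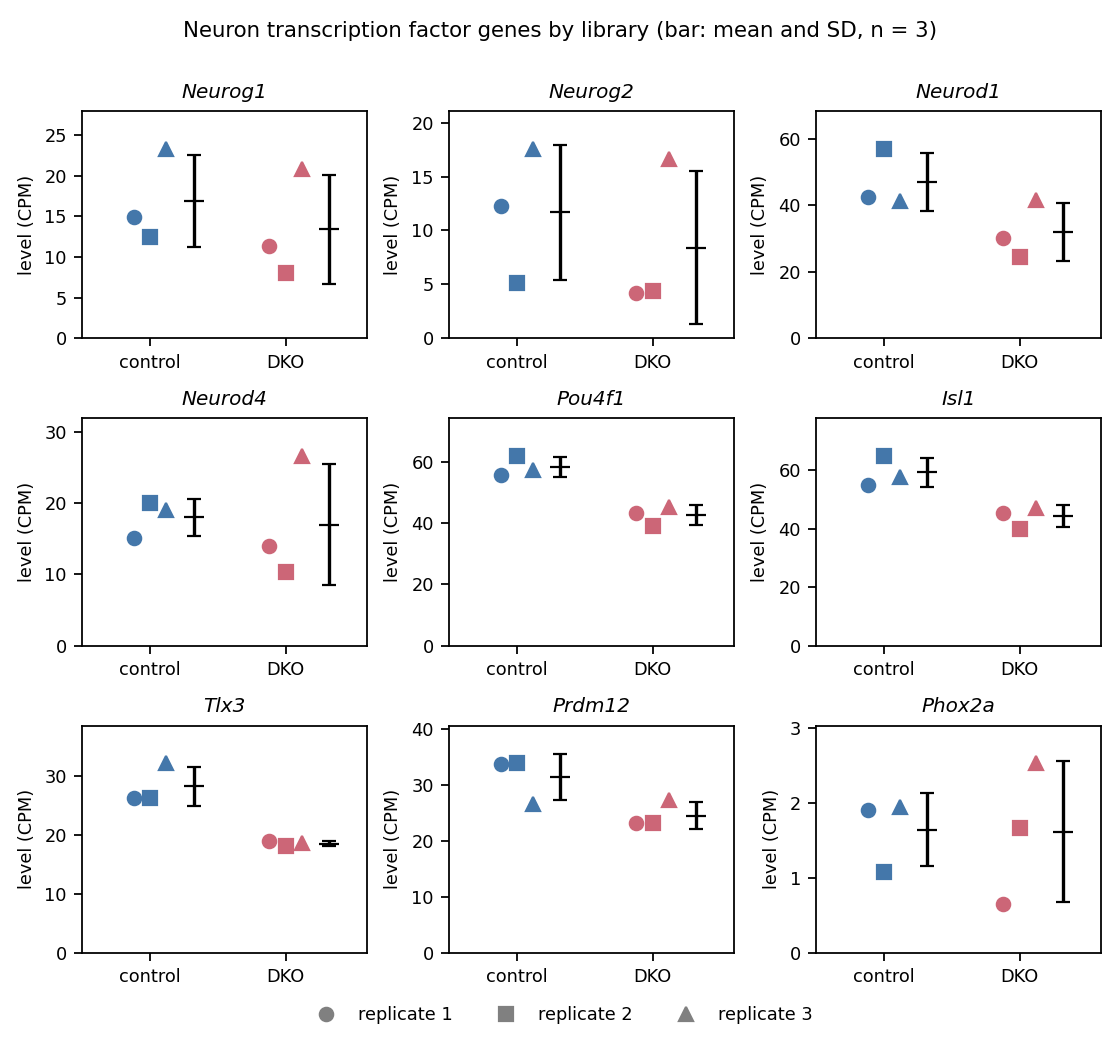
Level of each of the 9 genes in CPM (vertical axis, from 0) in the 3 control and 3 DKO libraries, with marker shapes for replicate numbers and bars for the mean and SD. Tlx3, Pou4f1 and Isl1 do not overlap between groups, whereas the 3 libraries of each group spread widely for Neurog2.

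The neurogenins did not separate the groups. Neurog1, which starts neurogenesis in the trigeminal ganglion, measured 11.3, 8.02 and 20.9 CPM in DKO and 14.9, 12.5 and 23.3 CPM in control libraries. Neurog2, which acts in the epibranchial placodes and in early crest-derived sensory precursors, measured 4.23, 4.34 and 16.6 CPM in DKO and 12.3, 5.16 and 17.6 CPM in control libraries. For both genes replicate 3 was the highest library of its group. The log2 fold changes were -0.33 (SE 0.39, 95% interval -1.27 to 0.60) for Neurog1 and -0.48 (SE 0.70, interval -2.22 to 1.27) for Neurog2, so changes of more than 2-fold in either direction for Neurog2, and downwards for Neurog1, lie within the intervals.

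Neurod4, a bHLH gene that acts beside Neurod1, spread more widely in DKO than in control, with 14.0, 10.3 and 26.6 CPM against 15.1, 20.0 and 19.0 CPM in control libraries. Its difference on the log2 scale was -0.08 (SE 0.33; edgeR adjusted p = 0.920) and turned to 0.18 without DKO replicate 2 and to -0.56 without DKO replicate 3. Phox2a was the scarcest of the 9, with 24, 73 and 113 counts in DKO and 85, 24 and 57 counts in control libraries. These are 0.647, 1.67 and 2.53 CPM against 1.90, 1.08 and 1.95 CPM. Its log2 fold change, -0.03 with an SE of 0.46 (edgeR adjusted p = 0.978), changed sign when DKO replicate 1 (0.34) or control replicate 1 (0.10) or 3 (0.09) was left out. Scaling by library size only also turned the signs of Neurod4 (0.00265) and Phox2a (0.045). Phox2a overlaps Inppl1 in RefSeq, a gene at 247 to 289 CPM, so its counts are uncertain, and 0 of the other 8 genes overlap another RefSeq gene.

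**Figure D2:**
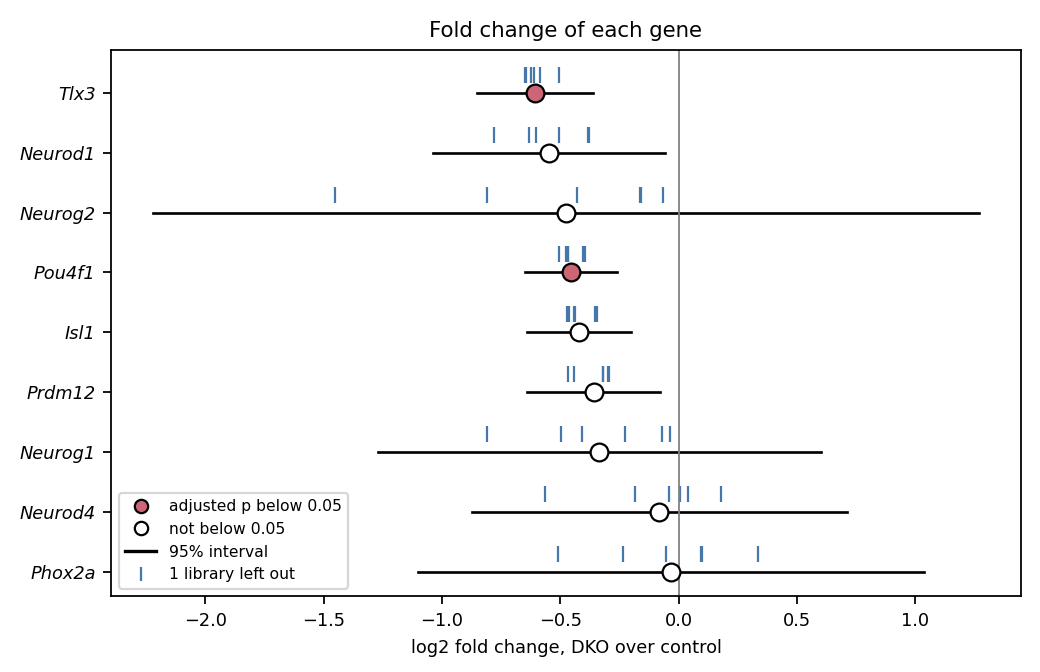
Log2 fold change of DKO over control for each gene (horizontal axis) with its 95% interval, filled where the adjusted p was below 0.05, and with blue ticks for the fits that leave out 1 library. Tlx3 (-0.61) and Pou4f1 (-0.45) are filled, and the ticks of Neurog2 run from -1.45 to -0.07.

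Per kilobase of exon (union of GENCODE M21 exons on the same assembly; the annotation used for counting is not given in the sources used here), the control level was highest for Tlx3 (18.4 ± 2.20 CPM per kb) and Neurod1 (17.2 ± 3.20), which do not differ beyond their spread. Isl1 (14.98 ± 1.27), Prdm12 (12.7 ± 1.67), Pou4f1 (12.5 ± 0.691) and Neurog1 (10.02 ± 3.37) followed, each within the summed SDs of its neighbour in that order. Neurod4 (5.38 ± 0.769), Neurog2 (5.24 ± 2.80) and Phox2a (0.807 ± 0.241) were lower (SD, n = 3 for each). In DKO libraries the highest 4 lay between 9.92 (Prdm12) and 12.1 CPM per kb (Tlx3), with Neurod1 at 11.8 and Isl1 at 11.2.

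Around their group means, Pou4f1 and Isl1 moved together (Pearson r 0.99 over the 6 libraries) and with Neurod1 (0.95 and 0.90), and Neurog1 moved with Neurog2 (0.91), whereas Neurog2 and Pou4f1 gave 0.16 and Neurog1 and Pou4f1 0.48. Neurod4 followed both Neurog1 (0.81) and Pou4f1 (0.86). Tlx3 did not move with Pou4f1 (-0.005) or Isl1 (-0.016), and gave -0.79 with Prdm12 and 0.60 with Neurog1. These r values describe 6 libraries of which both group means were removed, and the libraries also share depth and dissection, so no test was made. Genes of the neural tube followed the neurogenins by library: Sox3, a gene of neural progenitors, stood at 15.0, 6.90 and 36.0 CPM in DKO and 17.5, 10.4 and 37.5 CPM in control libraries. Sox1 (20.1, 12.8 and 44.9 against 26.3, 13.4 and 39.96 CPM) and Lhx1 (28.0, 13.4 and 40.9 against 32.3, 14.9 and 42.5 CPM) were likewise highest in replicate 3 and lowest in replicate 2 of each group. Sox3 was chosen after its values were seen. The neural tube list had 26 tested members, of which 0 were called and 13 were below 0, and summed to 288, 199 and 421 CPM in DKO and 308, 226 and 409 CPM in control libraries, so the sums overlapped; the motor neuron gene Mnx1 was below the filter. The part of neural tube content in the levels of Neurog1 and Neurog2 was not tested.

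**Figure D3:**
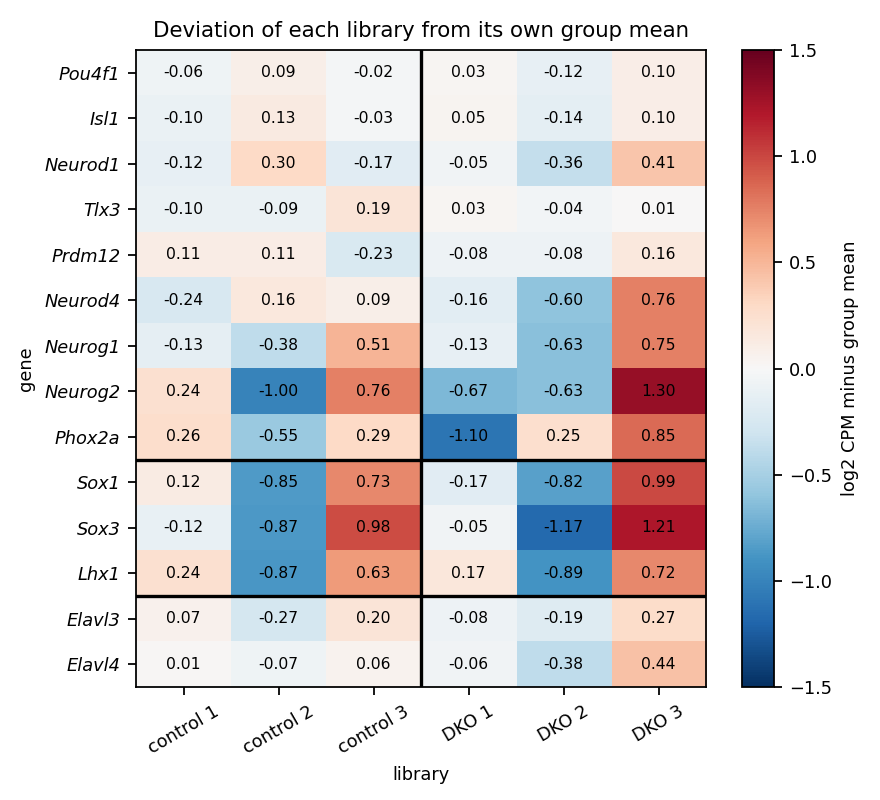
Log2 CPM of each library minus the mean of its own group (colour and number) for the 9 genes, 3 neural tube genes and 2 neuronal genes (rows) in the 6 libraries (columns). Neurog2, Sox1, Sox3 and Lhx1 are lowest in replicate 2 and highest in replicate 3 of the controls, and Neurog2 is highest in DKO replicate 3 (1.30).

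Among 11242 other genes with a mean of at least 5 CPM, those whose deviations followed the mean deviation of the 9 most closely were Gpd1l, Wdr76, Ubxn2b, Cenpc1, Ehmt2, Taf1d, Greb1, Tpp2, Inip and Zfpm1, with r between 0.996 and 0.999 over the 6 libraries. None of these 10 is in the neuronal or marker lists, and 717 genes (6.38%) had r above 0.9. The 10 were picked as the highest of 11242 r values, each over 6 libraries with both group means removed. An r near 1 can follow from that selection alone. A link between any of the 10, Ehmt2 included, and the 9 was not tested. Of the 9, Neurod4 followed the mean of the other 8 most closely (0.99) and Tlx3 least (0.06).

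Of 30 other regulators of sensory neurons, 28 were tested and 0 were called. Of the 28, 24 had a log2 fold change below 0, against 51.2% of all tested genes, and the median was -0.33. The count called lower was 2 with DESeq2, 3 with the replicate block and 4 without DKO replicate 3. Over all genes these fits called 482, 196 and 509 lower, against 119 in the main fit. In 5 of the 28 every DKO library lay below every control library, and in 1 above, against 12.7% and 14.5% of all tested genes. The list summed to 1335, 1262 and 1505 CPM in DKO and 1746, 1587 and 1699 CPM in control libraries, which did not overlap. Ebf3, a helix-loop-helix gene of differentiating neurons and of mesenchyme, was the most abundant, at 232, 255 and 255 CPM in DKO and 336, 306 and 295 CPM in control libraries (log2 fold change -0.34, SE 0.08; edgeR adjusted p = 0.0647). Zeb2 (-0.34) was also among the 3 most abundant. Among the 5 were, named after their values were seen, Nhlh1, a helix-loop-helix gene of newborn neurons (-0.44), and Prrxl1, a homeobox partner of Tlx3 in nociceptive circuits (-0.36; edgeR adjusted p = 0.197 and 0.178).

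Of 14 other autonomic regulators, 1 fell and 12 of 14 were below 0, with a median of -0.18. Over all tested genes 0.818% were called lower and 51.2% were below 0. In 4 of the 14 every DKO library lay below every control library and in 0 above, against 12.7% and 14.5% of all tested genes. The list summed to 1866, 1728 and 1992 CPM in DKO and 2168, 2194 and 2281 CPM in control libraries, which did not overlap. The gene that fell was Hand1 (-0.92, SE 0.12; edgeR adjusted p = 0.00776), which sympathetic neurons share with the distal arch mesenchyme; without DKO replicate 1 its adjusted p was 0.0501. Sox11 (-0.38, adjusted p = 0.0685), Sox4 (-0.16) and Lmo4 (-0.07) were the most abundant and were not called.

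Of 27 genes of the Notch pathway and of neurogenic progenitors, which hold back or time neurogenesis, 0 were called, 14 were below 0 and the median was -0.08, with Notch3 at -0.08, Ccnd1 at -0.12 and Notch2 at 0.06. Of 10 receptors for neurotrophins and GDNF family ligands, 0 were called, 8 were below 0 and the median was -0.20, with Sort1 at -0.21, Ngfr at 0.000919 and Gfra1 at -0.22.

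Of 19 tested genes that carry out sensory function, of 22 listed, 1 rose and 0 fell. Over all tested genes 2.19% were called higher, 0.818% were called lower and 51.2% were below 0. Of the 19, 13 were above 0, with a median of 0.21. Of those 13, 9 had means below 5 CPM in both groups, and the summed level of the list was 643 to 655 CPM in DKO and 643 to 748 CPM in control libraries, which overlap. DESeq2 called 1 member lower, and 482 genes lower over all tested genes. Slc17a6, a glutamate transporter gene named after its values were seen, measured 12.8, 14.1 and 13.1 CPM in DKO and 21.0, 16.1 and 17.9 CPM in control libraries, without overlap (-0.46; edgeR adjusted p = 0.0961). The gene that rose was P2rx3, an ATP-gated channel of nociceptors and of taste afferents, at 31.9, 34.2 and 29.1 CPM in DKO and 22.7, 22.0 and 20.7 CPM in control libraries (log2 fold change 0.54, SE 0.10; edgeR adjusted p = 0.0240). Its groups did not overlap, as for 14.5% of all tested genes in that direction, and its call ended without any 1 library other than DKO replicate 3 (edgeR adjusted p between 0.0695 and 0.115). The neurofilament genes Nefm (-0.17) and Nefl (-0.25) and Runx1t1 (-0.18) were more abundant and not called.

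Of 17 tested autonomic effector genes of 18, 2 rose and 0 fell, with a median of 0.03. Over all tested genes 2.19% were called higher and 0.818% lower. Chrna7, a nicotinic receptor subunit, stood at 11.0, 10.5 and 12.6 CPM in DKO and 4.54, 4.08 and 6.26 CPM in control libraries (1.19, SE 0.19; edgeR adjusted p = 0.0156). Ddc, the aromatic amino acid decarboxylase of catecholamine synthesis, rose by 1.02 on the log2 scale (adjusted p = 0.0299). Chrna7 was not called without DKO replicate 1, control replicate 1 or control replicate 2 (edgeR adjusted p between 0.0639 and 0.0703), and of the fits that leave out 1 library, Ddc was called in that without DKO replicate 3 alone. Maoa (-0.06), Chgb (-0.25) and Chga (0.10) were the most abundant.

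Pan-neuronal genes, which mark neurons of any type, went in both directions. Of 31 members, 3 rose, 0 fell and 23 were below 0, with a median of -0.09. Over all tested genes 2.19% were called higher, 0.818% were called lower and 51.2% were below 0. In 4 of the 31 every DKO library lay below every control library and in 4 above, against 12.7% and 14.5% of all tested genes. Crmp1 (0.70, SE 0.10, edgeR adjusted p = 0.0102), Stmn3 (0.71, SE 0.10, edgeR adjusted p = 0.0109) and the adhesion gene L1cam (0.64, SE 0.10, edgeR adjusted p = 0.0148) were higher in DKO. The calls of Crmp1 and Stmn3 ended without DKO replicate 1 (0.0530 and 0.0544), and that of L1cam without DKO replicate 1 or control replicate 2 or 3 (0.0676 to 0.0706). Tubb3 (-0.05) and Dpysl3 (-0.14) were abundant and not called. The Hu protein genes Elavl3 (-0.34) and Elavl4 (-0.48), RNA-binding proteins of postmitotic neurons, and the migrating neuron gene Dcx (-0.47) were not called and were named after their values were seen (edgeR adjusted p = 0.256, 0.215 and 0.214).

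**Figure D4:**
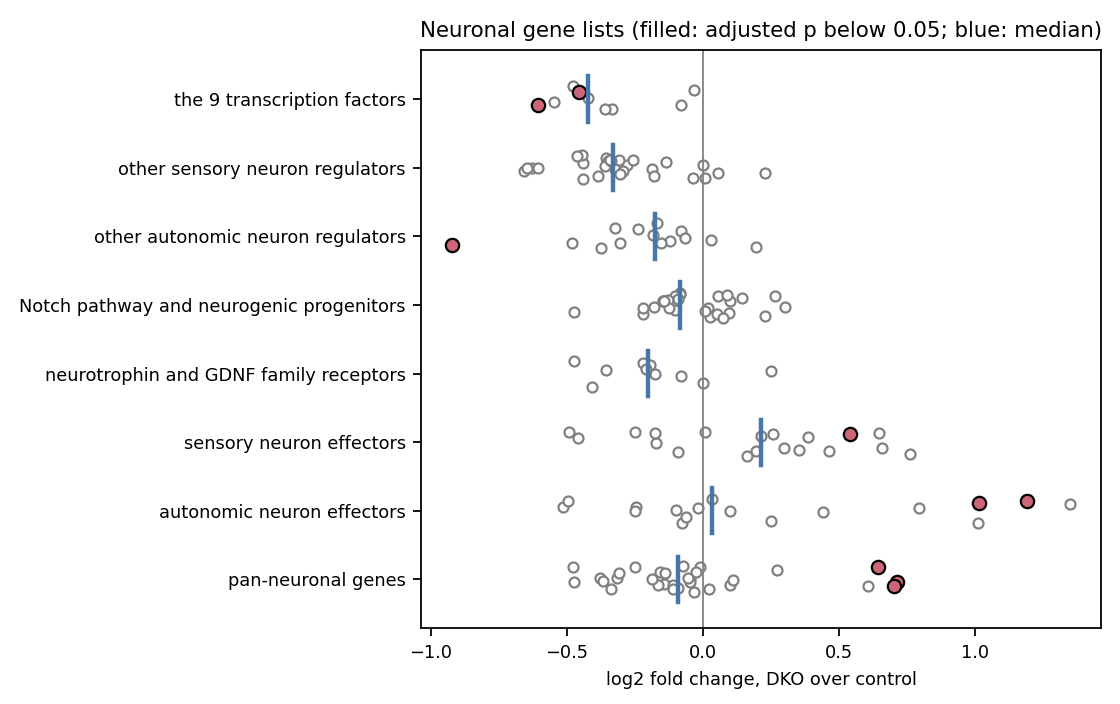
Log2 fold change of DKO over control (horizontal axis) for each tested gene of the 9 transcription factors and of 7 neuronal lists (rows), filled where the adjusted p was below 0.05, with a blue line at each median. The 9 genes have a median of -0.42 and the sensory effectors of 0.21.

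In bulk libraries, fewer neurons and less RNA of a gene per neuron cannot be told apart. The pan-neuronal genes summed to 3259, 3189 and 3496 CPM in DKO and 3476, 2892 and 3833 CPM in control libraries, which overlap. Per 1000 CPM of this sum, a measure added after the values were seen, Tlx3 was 5.60 ± 0.250 in DKO and 8.35 ± 0.780 in control libraries, Pou4f1 12.8 ± 0.533 and 17.5 ± 3.47, and Isl1 13.3 ± 0.734 and 17.8 ± 4.03 (SD, n = 3 each), and the groups of all 3 stayed apart. The ratios of Neurog1, Neurog2, Neurod1, Neurod4, Phox2a and Prdm12 overlapped. The levels of the 3 genes already did not overlap and the sum changed little, so their ratios are not a separate test. The pan-neuronal sum includes Crmp1, Stmn3 and L1cam, which rose. Without them the ratios of Tlx3 (6.80 ± 0.400 and 9.34 ± 0.937) and Pou4f1 (15.6 ± 0.624 and 19.6 ± 4.03) stayed apart and those of Isl1 (16.2 ± 0.872 and 19.9 ± 4.67) overlapped. The sum of Elavl3 and Elavl4 was 199, 175 and 263 CPM in DKO and 286, 243 and 306 CPM in control libraries. Per 1000 CPM of that sum, Tlx3 was 89.7 ± 17.0 and 102 ± 8.79, Pou4f1 205 ± 27.8 and 213 ± 37.1, and Isl1 212 ± 28.6 and 216 ± 43.9, and each of these 3 ratios overlapped between groups. This pair was chosen after its values were seen, both genes were themselves below 0, and the third Hu gene of the list, Elavl2, was at -0.01, so the choice of reference sets whether these ratios separate.

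The summed levels of the markers of other cells overlapped between groups for each list. Over all tested genes 2.19% were called higher and 0.818% lower. Glia and Schwann cell precursor genes summed to 466 to 507 CPM in DKO and 476 to 517 CPM in control libraries (0 of 15 called; median 0.000919), and Sox10 measured 64.5 to 80.6 against 63.1 to 91.9 CPM. Placode and epithelium genes summed to 135 to 190 against 138 to 191 CPM (1 of 18 rose, Oc90; median -0.08). Pitx1 and Pax9, which arch mesenchyme also expresses, made up 65.5% to 84.8% of this sum, and the other 16 genes summed to 26.8 to 46.4 against 28.6 to 36.5 CPM, highest in DKO replicate 3 (a split added after the values were seen). The epithelial genes Epcam and Cdh1 did not exceed 6.33 and 4.18 CPM in any library. Pharyngeal mesoderm and muscle genes, from a tissue that also expresses Isl1, summed to 71.0 to 100.04 against 81.1 to 87.2 CPM (0 of 12 called; median 0.27), with Tcf21 and Nkx2-5 below the filter. Endothelium and blood genes summed to 108 to 314 against 114 to 181 CPM (2 of 15 rose, Tie1 and Cd34; median 0.22), with globins highest in DKO replicate 3 (Hbb-y 101.5 CPM). Arch crest and ectomesenchyme genes summed to 3176 to 4191 against 3811 to 4552 CPM (0 of 22 called; median -0.17), and were lowest in DKO replicate 3. The part of these cells in the levels of the 9 genes was not tested.

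The 9 genes lie on 7 chromosomes, with Neurod1 and Prdm12 on chromosome 2 and Neurog1 and Isl1 on chromosome 13. Within 200 kb of them lay 30 tested genes, of which 1 was called, against 3.01% of all tested genes. The called gene, Cerkl beside Neurod1, rose (log2 fold change 1.11, edgeR adjusted p = 0.0419) and was named after its value was seen. The neighbours of Tlx3 were Npm1 (-0.39), Ranbp17 (-0.12) and Fgf18 (-0.08), that of Pou4f1 was Obi1 (0.05), and none was called.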

How the data were processed

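RNA from TdTomato-sorted cells of 3 DKO and 3 control samples was read as polyadenylated, strand-marked libraries. The authors deposited raw counts, whole numbers per symbol. They list Trim Galore, STAR 2.7.10a, Picard and mm10 (per the submitters' processing notes), while how reads were counted, on which strand and with which annotation is not given in the sources used here. All 6 columns matched a sample. The tests used edgeR 4.0.16 (R 4.3.3). Genes passed filterByExpr on the group (count of 10, total of 15; all 9 genes were above its threshold of 0.254 CPM in all 6 libraries). Scaling was TMM, followed by the robust quasi-likelihood test, 2-sided, with group as the only term, and Benjamini-Hochberg adjustment over 14555 genes. SE is the log2 fold change divided by the root of F. Alternatives were RLE, library size only, 2 filters, DESeq2 1.42.0, limma-voom (limma 3.58.1), a 1.5-fold threshold, a replicate block and leaving out each library. The test was checked on simulated counts. The 9 genes and the lists were chosen with earlier results of these data known. From each neuronal list, up to 4 called members and the 3 most abundant were named; marker lists are given by their sums. Some genes are not reported here. Any other gene is said to be chosen after its values were seen, except the markers that check cell types. Replicates of a group differed by at least 12.6 in chi-square per gene, above sampling noise, where counting error alone gives about 1.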

Additional observations from a re-analysis of the deposited data

How the results depend on the processing

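Of the 9 genes, 66 of 72 log2 fold changes under the 8 settings that kept all libraries had the same sign and the same side of the threshold, and 36 of 54 when 1 library was left out. Against a 1.5-fold change the calls of Tlx3 and Pou4f1 ended (0 of the 9 called), 0 pan-neuronal genes rose, and the totals over all genes were 104 higher and 18 lower. DESeq2 called 3 of the 9 lower (Isl1 added), 1 pan-neuronal gene lower, and over all genes 624 higher and 482 lower. Leaving out 1 library gave 0 to 4 of the 9 lower (4 without DKO replicate 3, 0 without any other), 0 to 4 pan-neuronal genes higher and 0 to 2 lower, and over all genes 110 to 597 higher and 21 to 509 lower. Such fits have fewer libraries. Signs turned for Neurod4 with library size only (0.00265), without DKO replicate 1 (0.038) or 2 (0.18), and without control replicate 2 (0.00749), and for Phox2a with library size only (0.045) and without DKO replicate 1 (0.34), control replicate 1 (0.10) or control replicate 3 (0.09); the cause was not tested. Over fits without 1 library Neurod4 ran from -0.56 to 0.18 and Phox2a from -0.51 to 0.34. Library size only moved the median of all genes from -0.01 to 0.07 and the split over all genes from 319 higher and 119 lower to 416 and 80.

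Same-numbered samples had deviations correlated at 0.07, -0.05 and 0.31, and 3 of the 6 libraries correlated best with their own number. So few values cannot decide whether the numbers pair the samples, and the labels do not state a pairing. With the replicate block 423 genes were higher and 196 lower, in place of 319 and 119, and 2 of the 9 remained lower, Tlx3 (edgeR adjusted p = 0.0168) and Pou4f1 (0.0301). The block lowered the SE of Neurog1 (from 0.39 to 0.14), Neurog2 (from 0.70 to 0.28), Neurod4 and Phox2a, and raised that of the others of the 9. The 10 genes nearest to the 9 in their deviations were the same with a prior count of 2. Phox2a had 24 counts in its lowest libraries, so depth limits its precision.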
